A study of Homo sapiens with 5 samples.

Results

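The genes described here encode enzymes and a chaperone that modify and cross-link collagen, and the question is where the transcription factor TEAD4 was bound around them in human hepatic stellate cells. The 10 genes, LOX, LOXL1, LOXL2, LOXL3, LOXL4, PLOD1, PLOD2, P4HA1, P4HA2 and SERPINH1, were taken by name out of 20007 protein-coding genes. A TEAD4 peak was assigned to a gene when its summit, the position of highest signal, lay in the gene body or within 50 kb of any of the gene's transcription start sites (TSSs). By this rule 42 of the 21113 peaks of the deposited list belonged to 9 of the 10 genes. TEAD4 was mapped by chromatin immunoprecipitation followed by sequencing (ChIP-seq) in LX-2 cells, an established human hepatic stellate cell line, all cultured with DMSO, the solvent used as vehicle. The series holds 3 TEAD4 ChIP samples and 2 input samples of chromatin taken before immunoprecipitation, with no other genotype or treatment among them. The list combines replicates 1 and 3, since replicate 2 was left out by the authors, so each peak has 1 value and no spread between replicates. A peak therefore gives a position and a strength in these cells as cultured, without a test between conditions. Neither the expression of the genes nor markers of the cells could be read from a peak list.

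Fibrillar collagen is made strong by modifications before and after secretion. In the endoplasmic reticulum, prolyl 4-hydroxylases, with P4HA1 and P4HA2 as alternative catalytic subunits, hydroxylate prolines and so stabilise the triple helix, lysyl hydroxylases such as PLOD1 and PLOD2 hydroxylate lysines, and SERPINH1 (HSP47) is a chaperone that binds the folded helix. Outside the cell, the copper-dependent lysyl oxidases LOX and LOXL1 to LOXL4 oxidise lysines and hydroxylysines, from which the covalent cross-links of collagen and elastin form. Cross-linked collagen is stiffer and harder to degrade, and these enzymes are well known from activated stellate cells in liver fibrosis. TEAD4 binds DNA through the motif ACATTCC and acts with the coactivators YAP1 and TAZ, often at sites where AP-1 factors also bind.

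Of the 42 summits, 15 (35.7%) held ACATTCC or the AP-1 motif given below within 100 bp, against 43.9% of all peaks. The sequences below were chosen mostly for these motifs, so they do not stand for all 42 summits. None is of LOXL2, LOXL3 or P4HA2. All sequences are of the plus strand of hg38, centred on the summit and 121 bases long unless stated, with motif letters in capitals. The first set holds the TEAD motif, ACATTCC on either strand, and was chosen because these summits carry the factor's own motif. For SERPINH1 a stretch of 25 bases centred on the motif, 9 bp from the summit, is given, since the summit lies in a UTR.
LOXL1, intron (chr15:73941151-73941271): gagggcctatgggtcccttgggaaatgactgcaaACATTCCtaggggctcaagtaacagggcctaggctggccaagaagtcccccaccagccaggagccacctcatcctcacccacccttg
LOXL4, upstream (chr10:98269507-98269627): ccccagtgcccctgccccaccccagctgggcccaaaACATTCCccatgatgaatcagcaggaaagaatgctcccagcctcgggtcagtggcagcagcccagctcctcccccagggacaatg
PLOD2, upstream (chr3:146163789-146163909): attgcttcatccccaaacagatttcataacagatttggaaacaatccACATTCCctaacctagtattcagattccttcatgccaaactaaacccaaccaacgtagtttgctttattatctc
PLOD2, intron (chr3:146134663-146134783): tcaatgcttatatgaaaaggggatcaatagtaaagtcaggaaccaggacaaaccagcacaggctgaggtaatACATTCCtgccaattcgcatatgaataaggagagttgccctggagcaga
SERPINH1, 25 bases (chr11:75563167-75563191): agcttagagACATTCCtgaggtggc

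The next set holds the AP-1 motif, TGACTCA or its reverse complement TGAGTCA, and includes the strongest peak of the 10 genes, in an intron of PLOD2.
PLOD2, intron (chr3:146132151-146132271): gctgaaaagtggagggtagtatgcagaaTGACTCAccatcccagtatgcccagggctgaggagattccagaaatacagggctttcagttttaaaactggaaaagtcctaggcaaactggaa
LOX, upstream (chr5:122089687-122089807): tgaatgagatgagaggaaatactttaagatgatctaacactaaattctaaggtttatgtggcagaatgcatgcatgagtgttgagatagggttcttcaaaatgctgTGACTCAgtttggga
LOXL1, upstream (chr15:73897959-73898079): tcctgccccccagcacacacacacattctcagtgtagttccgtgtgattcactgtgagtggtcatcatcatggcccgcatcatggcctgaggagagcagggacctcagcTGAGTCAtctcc
SERPINH1, upstream (chr11:75558268-75558388): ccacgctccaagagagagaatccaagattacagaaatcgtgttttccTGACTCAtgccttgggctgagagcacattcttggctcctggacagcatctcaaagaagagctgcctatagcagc

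The last pair shows summits close to a TSS without either motif. The P4HA1 sequence, from the only peak of that gene, holds the shorter core CATTCC, in capitals, with its centre 0.5 bp from the summit. The LOX sequence, from the strongest peak of that gene, holds none of the motifs searched.
P4HA1, intron (chr10:73095568-73095688): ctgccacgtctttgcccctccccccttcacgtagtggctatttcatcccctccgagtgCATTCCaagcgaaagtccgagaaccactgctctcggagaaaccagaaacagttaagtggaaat
LOX, upstream (chr5:122078481-122078601): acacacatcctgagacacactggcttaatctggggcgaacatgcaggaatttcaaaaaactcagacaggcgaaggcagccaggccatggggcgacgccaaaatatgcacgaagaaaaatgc

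Most of these genes had TEAD4 peaks, and some had many. At least 1 peak was assigned to 9 of the 10 genes (90%, 95% Wilson interval 59.6 to 98.2%), against 56.2% of 20007 protein-coding genes. The median was 3.5 peaks a gene, against 1 for all protein-coding genes. Since genes with several TSSs have longer windows, peaks were also counted per length, which gave 2.88 peaks per 100 kb of window for the 10 genes and 0.938 per 100 kb for all protein-coding genes. The numbers were 13 peaks for LOXL2, 8 for PLOD2, 5 for LOXL1, 4 for LOX, 4 for P4HA2, 3 for LOXL3, 2 for LOXL4, 2 for SERPINH1, 1 for P4HA1 and 0 for PLOD1. LOXL2 had more peaks than 99.5% of protein-coding genes and PLOD2 more than 97.9%, whereas 56.2% of protein-coding genes had as many as P4HA1 or more. Wilson intervals here cover counting error over genes or peaks only, and neighbouring peaks are not independent.

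**Figure D1:**
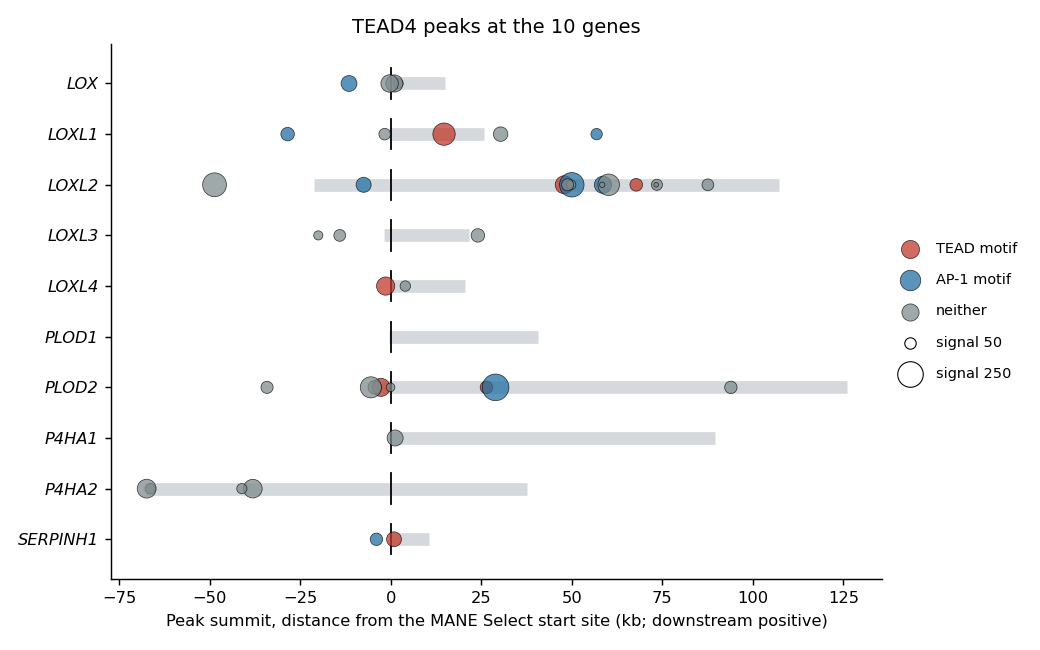
Position of each TEAD4 peak summit (circles) relative to the MANE Select TSS (vertical line, distance in kb, downstream positive) for each gene, with the annotated gene body as a grey bar. Circle area follows the deposited signal value and colour the motif within 100 bp of the summit. PLOD1 has no peak, LOXL2 has a group of 7 summits from 47.9 to 60.2 kb downstream, and all 4 P4HA2 summits lie upstream.

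Many of the genes had a peak near a start site. A summit lay within 2.5 kb of at least 1 annotated TSS for 8 of the 10 genes, against 16.7% of protein-coding genes. Counted from a single start per gene, the TSS of the MANE Select transcript that Ensembl and RefSeq both chose to stand for the gene, 6 of the 10 genes had such a peak, LOX, LOXL1, LOXL4, PLOD2, P4HA1 and SERPINH1, against 11.1% of genes with a MANE Select transcript. With a limit of 1 kb in place of 2.5 kb, 4 genes had a peak near any TSS. The share of all protein-coding genes was not computed at 1 kb, so this count has no background beside it. LOXL2 and P4HA2 were counted at 2.5 kb only through TSSs other than the MANE Select one. For LOXL2 these were 2 overlapping peaks deep in the gene, with signals of 47.5 and 8.41. LOXL3 and PLOD1 had no peak within 2.5 kb of any TSS. Of the 42 summits, 26 lay in the body of the gene, 14 (33.3%) within 2.5 kb of 1 of its TSSs, and 28 farther away. Of all peaks of the list, 24.4% lay within 2.5 kb of a TSS of any protein-coding or long non-coding RNA gene. That is a wider set of TSSs than those of the assigned gene. Shares in gene bodies and by annotation were not computed over all peaks. By annotation, 27 summits were intronic, 9 intergenic, 3 in UTRs, 2 in exons of non-coding transcripts and 1 in a coding exon.

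The strength of the peaks was close to that of the list as a whole. The signal value, the peak caller's measure of enrichment, had a median of 69.5 over the 42 peaks and of 68.1 over all peaks of the list. Of the 42 peaks, 22 were above the median of all peaks (52.4%, 95% Wilson interval 37.7 to 66.6%), and 3 were above its 90th percentile of 191.9, 2 of LOXL2 and 1 of PLOD2. The highest score for reproducibility between the replicates, 1000, was held by 33 of the 42 peaks (78.6%) and by 76.1% of all peaks. The 14 peaks within 2.5 kb of a TSS of the gene had a median signal of 77.2, and the 28 others 65.7.

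**Figure D2:**
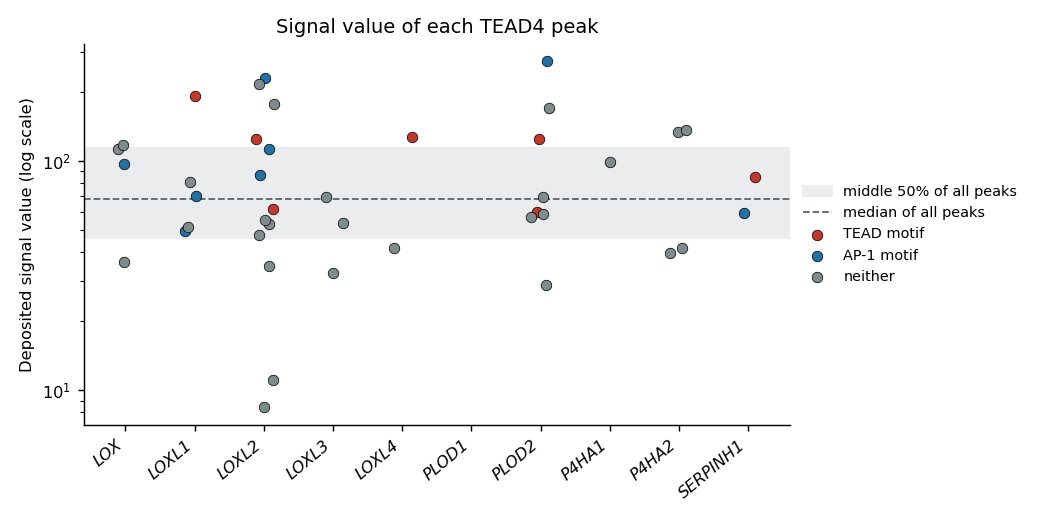
Deposited signal value (log scale) of each of the 42 TEAD4 peaks by gene, coloured by motif, with the middle 50% of all peaks of the list shaded (46.1 to 113.6) and their median dashed (68.1). The highest values are those of PLOD2 (272.1), LOXL2 (229.9 and 217.4) and LOXL1 (191.6), and the 2 lowest belong to LOXL2.

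LOX, the founding lysyl oxidase, had TEAD4 at its start. The gene (chr5:122063195-122078413, minus strand) had 4 peaks. The signal was 116.9 at 282 bp upstream of the MANE Select TSS, 113.0 at 1035 bp downstream and 36.1 at 2117 bp downstream. The fourth peak, at 11.5 kb upstream, had a signal of 96.8 and holds an AP-1 motif 49 bp from its summit. In the order given first, the 3 peaks of the start region lay 128, 1 and 59 bp from annotated TSSs of LOX. None of the 3 held the TEAD or AP-1 motif, and the closest TSS of all 4 summits was one of LOX. No other protein-coding gene received the 3 peaks by the rule. Of the 10 genes, LOX alone had more than 1 peak within 2.5 kb of its MANE Select TSS.

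LOXL1, the lysyl oxidase tied to elastic fibres, had its strongest peak inside the gene. The gene (chr15:73925989-73952137, plus strand) had 5 peaks. The intronic peak 14.7 kb downstream of the MANE Select TSS had a signal of 191.6, above 89.9% of all peaks, and its TEAD motif was centred 23 bp from the summit. Near the start, 1639 bp upstream and in an intron of the antisense transcript LOXL1-AS1, a peak had a signal of 51.6. The other values were 70.003 at 28.4 kb upstream, 80.9 at 30.4 kb downstream and 49.7 at 56.9 kb downstream. The last of these summits lay in a UTR of STOML1, whose TSS was also the closest. The TEAD motif was thus found at the strongest of the 5 peaks, and the AP-1 motif at the most distant on either side. Of the summits assigned by distance alone, this downstream peak lay farthest from a TSS of its gene, at 35.5 kb, and the next peak beyond the limit was 53.4 kb from a TSS of LOXL1.

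LOXL2, a lysyl oxidase-like enzyme with scavenger receptor domains that also acts on basement membrane collagen, had the most peaks, and most lay deep in the gene. The gene (chr8:23296897-23425328, minus strand) had 13 peaks, 12 of them in its body. No summit lay within 2.5 kb of the MANE Select TSS, whose nearest peak, at 7457 bp upstream, had a signal of 86.8 and an AP-1 motif. The remaining TSSs of LOXL2 are spread over the gene, 15 in all, and 2 peaks lay within 2.5 kb of one. These 2 peaks overlapped each other, at 73.3 and 73.5 kb downstream of the MANE Select TSS, with signals of 8.41 and 47.5. A group of 7 summits spanned 12.3 kb, from 47.9 to 60.2 kb downstream of the MANE Select TSS, in introns also overlapped by the antisense transcript LOXL2-AS1. Their signals, from the one nearest to the MANE Select TSS onwards, were 124.2, 55.5, 34.7, 229.9, 11.1, 112.8 and 177.5. The peak of 124.2 holds a TEAD motif, those of 229.9 and 112.8 an AP-1 motif, that of 34.7 an E-box and that of 11.1 a RUNX motif. The group thus mixed strong and weak summits and different motifs. Its weakest summits were not separate regions, since that of 34.7 shared the interval of 229.9 and that of 11.1 overlapped the peak of 112.8.

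The other LOXL2 peaks lay on both sides of this group. Farther downstream the signals were 61.6 at 67.8 kb, 8.41 at 73.3 kb, 47.5 at 73.5 kb and 53.0 at 87.6 kb. The peak of 61.6 lay in an exon of LOXL2-AS1, 88 bp from a TSS of that transcript, and holds a TEAD motif 14 bp from the summit. The outermost upstream peak, at 48.6 kb, had a signal of 217.4 and lay in an intron of ENTPD4, whose TSS was closer. It holds 3 copies of the core CATTCC and no ACATTCC. Among the 13 peaks, 6 overlapped another one, and a single interval was listed with 2 summits, of 229.9 and 34.7. The peaks of 8.41 and 11.1, each of which overlapped a stronger peak, were the only 2 of the 42 with a q-value above 0.05. Of all peaks of the list, 3.19% had a q-value above 0.05. Merged where they overlapped, the peaks of LOXL2 came to 10.

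LOXL3, needed for palate and spine development, had peaks only outside the gene. The gene (chr2:74532258-74555690, minus strand) had 3 peaks and none in its body. The signal was 69.7 at 24.1 kb downstream of the MANE Select TSS, 53.7 at 14.1 kb upstream and 32.4 at 20.0 kb upstream. The first summit lay 35 bp from a TSS of HTRA2, a mitochondrial protease, and the other 2 in introns of M1AP. The locus is dense in genes, and the rule assigned the HTRA2 peak to 10 other protein-coding genes as well. In none of the 3 was the closest TSS one of LOXL3, and none held a TEAD, AP-1, RUNX or E-box motif. The peak of 53.7 holds the core CATTCC, centred 29.5 bp from its summit. With a limit of 10 kb LOXL3 had 0 peaks.

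LOXL4, the remaining member of this family, had 2 peaks around its single annotated TSS. The gene lies at chr10:98247690-98268194 on the minus strand. The signal was 127.4 at 1373 bp upstream, where the TEAD motif was centred 21 bp from the summit, and 41.9 at 4055 bp downstream, in an intron. The upstream peak was stronger than 79.5% of all peaks, and the intronic one stronger than 19.0%. For both peaks LOXL4 had the closest TSS and was the only protein-coding gene by the rule.

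The 5 lysyl oxidase genes had 27 peaks with a median signal of 69.7, and each of them had at least 1. The 4 hydroxylase genes had 13 peaks with a median of 69.4, and 3 of the 4 had at least 1. By the same rule 56.2% of protein-coding genes had at least 1.

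Of the 2 lysyl hydroxylases, PLOD2 had peaks and PLOD1 had none. PLOD1 (chr1:11934205-11975538, plus strand), which hydroxylates lysines of the helical part of collagen, had no peak in its window of 137.3 kb, and the peak nearest to a TSS of PLOD1 was 74.5 kb away. PLOD2 (chr3:146035139-146163725, minus strand), the hydroxylase of the telopeptides at the ends of the helix, had 8 peaks. Its strongest peak, 29.0 kb downstream of the MANE Select TSS in an intron, had a signal of 272.1, the highest of the 42 and above 95.4% of all peaks. An AP-1 motif was centred 29 bp and a RUNX motif 77 bp from this summit, and no TEAD motif was found.

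Around the start of PLOD2 the weakest and some of the stronger peaks lay side by side. The summit 18 bp from the MANE Select TSS, in a UTR with 79.6% G and C bases around it, had a signal of 28.7, the lowest of the gene. Upstream, the signals were 124.7 at 2665 bp, 69.4 at 4386 bp and 170.8 at 5459 bp. The peak of 124.7 lay 124 bp from another annotated TSS of PLOD2 and holds a TEAD motif 10 bp from its summit, and the peak of 170.8 holds an E-box 2.5 bp from its summit. The remaining signals were 60.1 at 26.5 kb downstream, with a TEAD motif, 58.7 at 93.9 kb downstream and 56.7 at 34.1 kb upstream. The last lay in an intron of PLSCR4, and for 6 of the 8 peaks the closest TSS was one of PLOD2. The stretch upstream of the gene thus carried 3 peaks between 2.67 and 5.46 kb from the MANE Select TSS, all stronger than the one on the TSS itself.

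Both prolyl hydroxylase subunits had peaks. P4HA1 (chr10:73007217-73096974, minus strand), the more widely expressed subunit, had 1 peak in a window of 180.1 kb. Its signal was 98.5, above 69.0% of all peaks, and its summit lay in an intron 1238 bp downstream of the MANE Select TSS. The next peak was 252.5 kb from a TSS of P4HA1, the largest such gap among the 10 genes. This single peak therefore lay at the start of the gene, with no other in reach of the rule.

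P4HA2 (chr5:132190147-132295315, minus strand) had 4 peaks, and none lay near its MANE Select start. All 4 were upstream of that start. The signals were 133.6 at 38.05 kb, 39.8 at 41.1 kb, 41.9 at 66.4 kb and 136.7 at 67.4 kb. They lay in the annotated gene body since longer transcripts of P4HA2 start as far as 67.5 kb upstream of the MANE Select TSS. The summit of 136.7 lay in a coding exon of P4HA2, 50 bp from 1 of its TSSs. This summit also lay in SLC22A4, an organic cation transporter gene. The first 2 summits lay in PDLIM4 as well, whose TSS was the closest. The summit of 41.9 lay 156 bp from a TSS of SLC22A4. All 4 peaks were assigned to PDLIM4 and SLC22A4 too, and for 1 of the 4 P4HA2 had the closest TSS. With the MANE Select transcript alone, 2 of the 4 peaks remained within the rule.

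SERPINH1, the collagen chaperone, had 2 peaks, both close to its start. The gene lies at chr11:75562056-75572783 on the plus strand. The signal was 85.0 at 935 bp downstream of the MANE Select TSS, in a UTR, where the TEAD motif shown above was centred 9 bp from the summit. The other peak, 3925 bp upstream, had a signal of 59.3 and an AP-1 motif 10 bp from its summit. A summit with a TEAD motif and one with an AP-1 motif were thus 4.86 kb apart at this gene, and SERPINH1 had the closest TSS for both. GDPD5 and MAP6 received both peaks by the rule as well.

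Over all 10 genes, the closest TSS was one of the assigned gene for 30 of the 42 peaks (71.4%, 95% Wilson interval 56.4 to 82.8%), and another gene held it for 12. The share with the closest TSS was not computed over all assigned peaks. By the rule 22 of the 42 peaks were assigned to another protein-coding gene too, and 20 to the named gene alone. Of all peaks assigned to protein-coding genes, 39.5% went to several of them. All peaks of LOXL3, P4HA1, P4HA2 and SERPINH1 were shared in this way, the single peak of P4HA1 with ECD and NUDT13, and those of LOXL4 not at all.

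Motifs were about as frequent under these summits as under all summits of the list. Within 100 bp, ACATTCC was found at 7 of the 42 peaks (16.7%, 95% Wilson interval 8.32 to 30.6%), against 22.97% of all peaks, and the AP-1 motif at 8 (19.0%, 9.98 to 33.3%), against 25.4%. The core CATTCC was found at 20 (47.6%, against 46.8%), the RUNX motif TGTGGTT at 4 (9.52%, against 9.53%) and the E-box CAGATG at 8 (19.0%, against 16.7%). All intervals include the share of all peaks. Both strands were searched, and each ACATTCC is also counted as a CATTCC. No summit held both the TEAD and the AP-1 motif, 0 of 42 with an upper 95% Wilson bound of 8.38%, against 4.49% of all peaks. This holds for the exact AP-1 words TGACTCA and TGAGTCA only. With TGANTCA, where N is any base, the AP-1 share was 26.2%, and its share of all peaks was not computed. The LOXL4 summit with ACATTCC also holds TGAATCA, so it would then hold both. The 7 TEAD motifs were at LOXL1, LOXL2 (2 peaks), LOXL4, PLOD2 (2 peaks) and SERPINH1, and the 8 AP-1 motifs at LOX, LOXL1 (2 peaks), LOXL2 (3 peaks), PLOD2 and SERPINH1. LOXL3, P4HA1 and P4HA2 had neither.

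Where ACATTCC was present it lay near the summit. Its centre was 9 to 26 bp from the summit at the 7 peaks, with a median of 15 bp, and within 30 bp at 7 of 7 (95% Wilson interval 64.6 to 100%). Over all peaks with the motif, the median was 16 bp and 76.5% lay within 30 bp. The AP-1 motif lay 3 to 61 bp from the summit, with a median of 32.5 bp, and within 30 bp at 4 of 8, against 49.1% of all peaks with it. The signal of the 7 peaks with ACATTCC ranged from 60.1 to 191.6 with a median of 124.2, and that of the 35 without from 8.41 to 272.1 with a median of 59.3. These ranges overlapped, and over all peaks of the list the medians were 82.2 with the motif and 64.6 without.

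The same motifs were searched in the bases around the starts of these genes. RefSeq promoter windows of hg38, 300 bases across each start, were matched by symbol for 9 of the 10 genes, 13 windows in all, and LOXL2 was not matched. ACATTCC occurred in 1 of the 13 windows, of LOXL3, and in 3.46% of 35116 windows of the table. The core CATTCC occurred in 2 of the 13, of LOXL3 and P4HA2, and in 14.0% of all windows. The AP-1, RUNX and E-box motifs occurred in none, against 4.95%, 4.27% and 14.7% of all windows. The LOXL3 window with ACATTCC had no TEAD4 summit within 2.5 kb, and the start regions of LOX and P4HA1 had summits without ACATTCC. No match says only that these letters are not in the window.

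Other genes of collagen processing had peaks about as often as protein-coding genes in general. Among 23 further enzymes, chaperones and proteases of the pathway, 13 had at least 1 peak (56.5%, 95% Wilson interval 36.8 to 74.4%), against 56.2% of all protein-coding genes. They had 32 peaks in all, with a median of 1 a gene, as for all protein-coding genes, and 0.886 per 100 kb of window, against 0.938. For 6 of the 23 (26.1%), a summit lay within 2.5 kb of a TSS, against 16.7% of protein-coding genes. P3H2, a prolyl 3-hydroxylase, and TLL1, a procollagen C-proteinase, had 7 peaks each and ADAMTS14, a procollagen N-proteinase, had 4. The highest signals were 429.0 for TLL1, 422.0 for P3H2 and 239.8 for COLGALT2, which adds galactose to hydroxylysine. No peak was assigned to PLOD3, P4HB, P3H1, P3H3, COLGALT1, TLL2, PCOLCE2, ADAMTS3, MIA3 or TMEM38B. PLOD3 is the third lysyl hydroxylase, and P4HB is the common beta subunit of the prolyl 4-hydroxylases.

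The genes of the fibrillar collagens, substrates of these enzymes, all had peaks. All 11 fibrillar collagen genes had at least 1, against 56.2% of protein-coding genes, with 51 peaks in all, a median of 5 a gene and 2.16 per 100 kb of window, from 1 peak for COL11A1 and for COL24A1 to 13 for COL5A2. For 4 of the 11 (36.4%), a summit lay within 2.5 kb of a TSS, against 16.7% of protein-coding genes and 8 of the 10 cross-linking and hydroxylating genes. The median signal of their peaks was 70.2, close to the 69.5 of the 42. The lists were put together with results of these data known, and their differences were not tested.

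**Figure D3:**
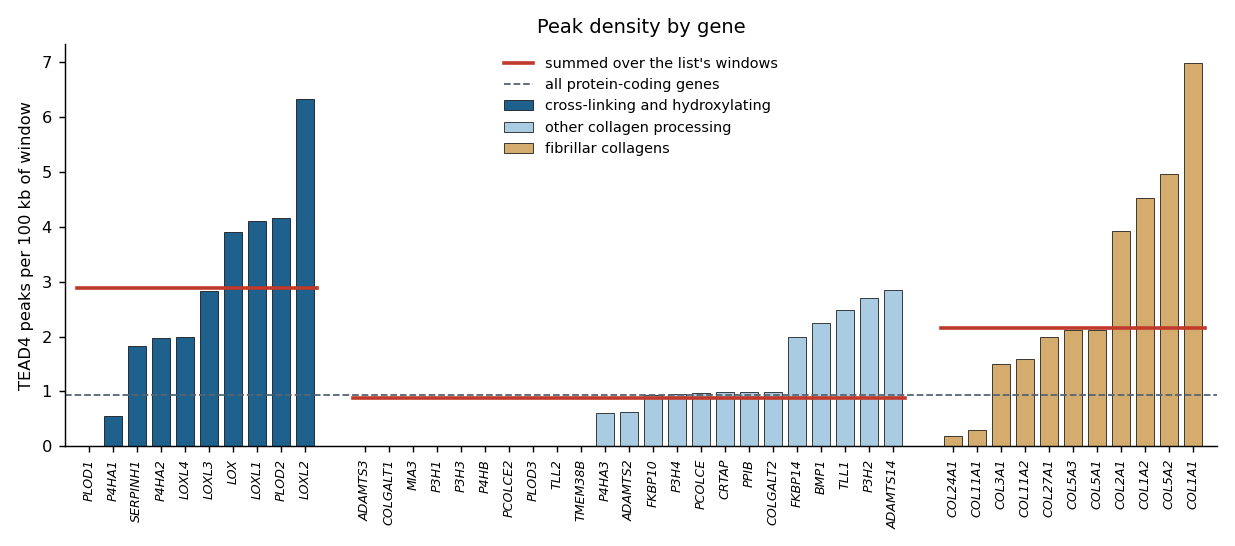
TEAD4 peaks per 100 kb of window for each cross-linking or hydroxylating gene, other collagen-processing gene and fibrillar collagen gene, with the value summed over each list in red and that of all protein-coding genes dashed (0.938). The red lines stand at 2.88, 0.886 and 2.16, and 8 of the 10 genes exceed the dashed line.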

How the data were processed

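DMSO-treated LX-2 cells gave 3 TEAD4 ChIP-seq replicates and 2 inputs. The authors mapped reads to hg38 with Chromap and ran the ENCODE IDR (irreproducible discovery rate) pipeline, keeping replicates 1 and 3. The deposited list has 21113 peaks and 10 columns, none of them per sample. Its score (scaled IDR), signal value and −log10 q-value, and the summit offset, are the authors' values per peak, identified from the layout of the list. The peak caller and the scale of the signal are not given in the sources used here. The depth per sample is unknown, and the precision of shares is given by Wilson 95% intervals.

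No peak of the 21113 runs past a chromosome end in the hg38 sequence used. Genes, transcripts and TSSs came from GENCODE release 44, with 20007 protein-coding symbols, and all 10 genes, 23 other collagen-processing genes and 11 fibrillar collagen genes were found in it. Summits were assigned to a gene in its body or within 50 kb of a TSS. Exact motif matches to 100 bp either side of a summit were counted on both strands. Assignment, merging and motif search were tested on simulated data. Promoter windows came from RefSeq. No test was made, since 1 list without values per replicate gives no spread. Named were the 10 genes, the other collagen-processing genes with the most peaks, the highest signals or none, the fibrillar collagens with the most and fewest, and genes sharing a peak. The genes, lists, rules and alternatives were chosen with earlier results of these data known. Alternatives covered the peak set, the distances, the TSSs and the motifs. Scripts ran in Python 3.11.15 with pysam 0.24.0, numpy 2.4.6, matplotlib 3.10.9, pandas 2.3.3 and scipy 1.17.1.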

Additional observations from a re-analysis of the deposited data

How the results depend on the processing

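Of 178 values recomputed under other settings, 147 stayed close to the reported ones, within 1.5 times for counts and within the 95% interval for shares and the median. The number of the 10 genes with a peak and the share with the AP-1 motif did so in each alternative tried for them. That number was 8 at 10 kb and 10 at 100 kb. From 9 of 10 genes, the limit of 1.5 times could be passed only downwards. With only peaks above the median signal, the 10 genes had 22 peaks with a median signal of 120.5, and 8 other collagen-processing genes had a peak. With a promoter distance of 1 kb, 4 of the 10 genes had a peak near a TSS, and the share of all protein-coding genes was not computed. With 1 TSS per gene, the closest TSS was that of the assigned gene for 51.2% of the peaks. With CATTCC as the TEAD motif, the share was 47.6%. The share of protein-coding genes with a peak was 48.8% with only the highest IDR score, 38.8% with only peaks above the median signal, 34% at 10 kb, 72.0% at 100 kb, 55.3% without the gene body, 53.5% with 1 TSS per gene, 54.1% with TSSs of protein-coding transcripts and 52.7% with MANE Select transcripts only. Smaller peak sets and other windows change counts by construction, and other causes of these shifts were not tested. Over single genes, 17 of 100 counts moved by over 1.5 times or to or from 0. LOXL3 had 1 peak with the highest IDR score and 0 at 10 kb, PLOD1 had 2 at 100 kb, and SERPINH1 had 6 and P4HA2 9 there. The alternatives with the MANE Select transcript and with the q-value limit were chosen after seeing the data.

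No paired analysis was possible because each peak has 1 value for both replicates together, and for the same reason none was left out in turn. Data of single replicates and inputs were not analysed here. Reads per peak are not in the list, so how far depth limits the weak peaks and the lack of peaks at PLOD1 was not tested.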
